A study of Homo sapiens with 2 samples.

Results

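LYPLA1, LYPLA2, PPT1 and ABHD10 are 4 genes for protein depalmitoylases, taken here from 12178 genes with at least 1 listed C-to-U position in either of 2 long-read libraries. S-palmitoylation joins a fatty acid to a cysteine of a protein and so holds many signalling proteins at membranes. Palmitoyltransferases of the ZDHHC family attach the lipid and thioesterases remove it, which makes the modification reversible. LYPLA1 and LYPLA2, also called APT1 and APT2, are cytosolic acyl-protein thioesterases. PPT1 is the lysosomal palmitoyl-protein thioesterase that is lost in infantile neuronal ceroid lipofuscinosis, and ABHD10 is a mitochondrial depalmitoylase. The members were found by assigning each locus of the isoform models to the GENCODE gene with which it shared most exonic sequence on the same strand, and all positions listed under the matching loci were kept. The genes were chosen by symbol with the number of listed positions in each library already known, so those counts and their ratios are a description and carry no test.

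Both libraries came from HEK293T cells, an immortalized line of human embryonic kidney origin that the labels' cell line entry calls HEK293XT. The labels call both samples in situ STAMP. The study describes fixed cells given APO1-Nb, in which the cytidine deaminase APOBEC1 is fused to a nanobody against rabbit IgG. In its design the RBFOX2 sample also receives a rabbit anti-RBFOX2 antibody, which places the enzyme next to RBFOX2, a splicing factor that binds UGCAUG in RNA, whereas the enzyme-only sample receives the fusion without it. Full-length cDNA was read on the PacBio platform, and there was 1 library per group, so no difference has a replicate check and every comparison is between these libraries rather than between conditions. Which of the study's fixatives, methanol or paraformaldehyde, these long-read libraries had is not given in the sources used here, and antibody and library could not be told apart. The RBFOX2 library held 121930 positions and 2431345 gene reads, and the enzyme-only library held 103684 positions and 2233600 gene reads. Intervals are exact 95% intervals and cover counting error only.

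The locus that carried the LYPLA1 symbol, PB.25503, was not LYPLA1 alone. It joined LYPLA1 (ENSG00000120992.18, hg38 chr8:54046367-54102017, minus strand) with its downstream neighbour TCEA1 (ENSG00000187735.16, chr8:53966552-54022448, minus strand), which encodes the transcription elongation factor TFIIS. The annotated genes are 23918 nt apart. Of 46 isoform models under this identifier, 33 lay in LYPLA1 and 13 in TCEA1, and 0 spanned both. Among 10081 loci with a symbol, 1637 shared exonic sequence with more than 1 annotated gene. Reads were given once per locus, so the share of them that belonged to LYPLA1 is unknown, and an edit percentage at a LYPLA1 position is relative to reads of both genes. The counts, ratios and shares below are therefore given for the locus and, where stated, for the LYPLA1 gene on its own.

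LYPLA2 (ENSG00000011009.11, PB.593) lies at chr1:23791145-23795539 on the plus strand, PPT1 (ENSG00000131238.18, PB.1079) at chr1:40072710-40097260 on the minus strand, and ABHD10 (ENSG00000144827.9, PB.11962) at chr3:111979010-111993368 on the plus strand.

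The sequences printed here surround positions of LYPLA2, PPT1 and ABHD10 listed in both libraries with at least 3 converted reads in all, followed by the shared ABHD10 position beside UGCAUG. They show the base surroundings of cytosines listed as converted with and without the antibody. Without a library that lacked the enzyme, editing could not be told apart there from other sources of C-to-U reads. The 4 shared positions of the LYPLA1 locus are not printed. In each line below the sequence is the RNA sense strand of hg38 written as DNA, 5′ to 3′, with the listed cytosine in capitals. In the ABHD10 exon that holds UGCAUG, the motif is in capitals too.
LYPLA2, 3′UTR, chr1:23795102-23795122: atggggccccCccaggcccct
PPT1, 3′UTR, chr1:40073235-40073255: agtcaacttaCtctgttgctg
PPT1, 3′UTR, chr1:40073233-40073253: tcaacttactCtgttgctggc
PPT1, 3′UTR, chr1:40073916-40073936: acatgccctaCttggaaagat
PPT1, coding sequence, chr1:40074060-40074080: tcataccattCcttggatgaa
ABHD10, coding sequence, chr3:111991698-111991718: aagctctcaaCtatagttaac
ABHD10, alternative exon with UGCAUG, chr3:111990728-111990757: tacattCagcctaaaatTGCATGagtatgt
APOBEC1 is known to prefer a cytosine that follows A or U. The PPT1 and ABHD10 positions in these lines all had A or U (T in the DNA letters) directly 5′, and the LYPLA2 position lay in a run of cytosines.

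Under the LYPLA1 locus the RBFOX2 library listed 52 positions (exact Poisson interval 38.8 to 68.2) and the enzyme-only library 14 (7.65 to 23.5), at 967 and 823 gene reads. Positions were listed only above an edit fraction of 0.002 of gene reads, so a position here needed 2 converted reads in either library. The positions held 132 converted reads against 33 in the enzyme-only library, which is 137 and 40.1 per 1000 gene reads of the locus. Only 4 positions were common to both libraries. The 48 and 10 that were not gave a log2 ratio of RBFOX2 over enzyme-only of 1.94 (1.00 to 3.15), scaled by library totals. Within the LYPLA1 gene alone, 23 positions were listed in the RBFOX2 library against 7 in the enzyme-only library, with 64 and 17 converted reads, or 66.2 and 20.7 per 1000 gene reads of the locus. Of these positions, 22 and 6 were unshared, for a log2 ratio of 1.53 (0.26 to 3.20). The TCEA1 part of the locus held 29 and 7 positions, 26 and 4 of them unshared, with a log2 ratio of 2.29 (0.91 to 4.42). The RBFOX2 library was thus higher in either gene of the locus, and LYPLA1 held 44.2% of the RBFOX2 positions of the locus.

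In the other depalmitoylases the counts of the libraries were within 2-fold of each other. LYPLA2 had 18 positions in the RBFOX2 library against 17 in the enzyme-only library, at 256 and 203 gene reads, with 19 converted reads in each. Its log2 ratio of unshared positions, 16 against 15, was -0.17 (-1.28 to 0.95). PPT1 had 51 positions in the RBFOX2 library against 62 in the enzyme-only library, at 363 and 364 gene reads, with 59 and 72 converted reads. Its 39 and 50 unshared positions gave a log2 ratio of -0.62 (-1.26 to 0.01). ABHD10 had 20 and 14 positions at 109 and 115 gene reads, with 21 and 14 converted reads, and its 16 and 10 unshared positions gave 0.39 (-0.81 to 1.72). The intervals of LYPLA2, PPT1 and ABHD10 all include 0, although PPT1 under a common read minimum was at -0.70 (-1.35 to -0.07). Most of their positions rested on a single read: 17 of 18 in LYPLA2, 44 of 51 in PPT1 and 19 of 20 in ABHD10 in the RBFOX2 library, and 16 of 17, 55 of 62 and 14 of 14 in the enzyme-only library.

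**Figure D1:**
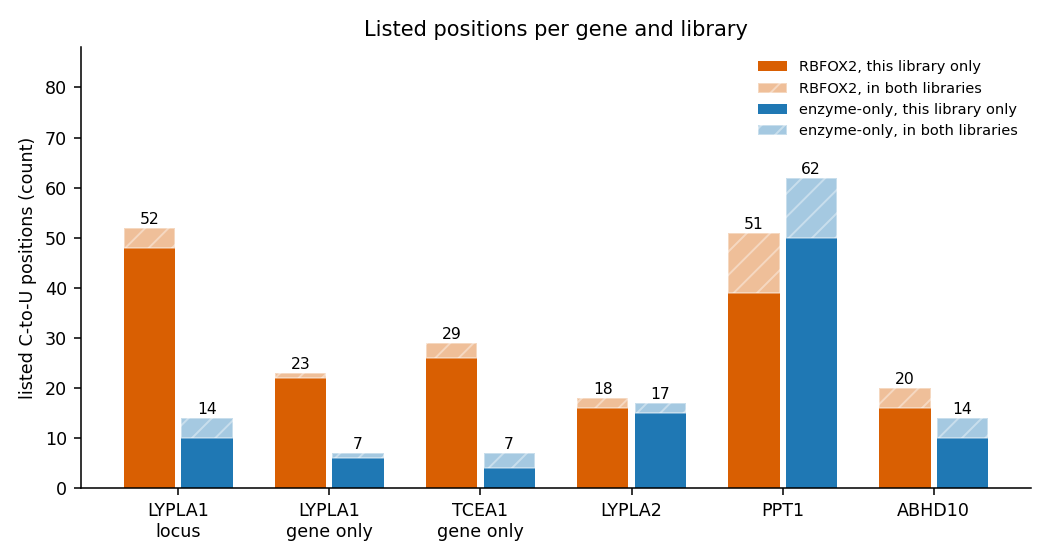
Bars give the number of listed C-to-U positions (y axis, count) for each gene in the RBFOX2 and enzyme-only libraries, with positions common to both libraries hatched and the total above each bar. The LYPLA1 locus had 52 and 14 positions, split between LYPLA1 (23 and 7) and TCEA1 (29 and 7), and PPT1 was the only one with more positions in the enzyme-only library (62 against 51).

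Of the 4 members, the LYPLA1 locus alone passed a 2-fold difference. Among all 3604 genes with at least 20 unshared positions, 16.8% were over 2-fold higher in the RBFOX2 library and 14.6% were so in the enzyme-only library, and the median log2 ratio was 0.08. Read depth set which genes LYPLA1 can be placed beside. Where 2 converted reads were needed in both libraries, as at the LYPLA1 locus, 41.4% of 169 genes were over 2-fold higher in the RBFOX2 library and 2.96% were so in the enzyme-only library (median 0.78). In that class, 28 genes (16.6%) were at or above the LYPLA1 locus, against 137 (3.80%) of all 3604. The LYPLA1 gene alone, at 1.53, was also past 2-fold under this scaling. At or above it were 39 genes (23.1%) of that class and 274 (7.60%) of all genes. The library totals used for scaling were mostly positions of 1 converted read: 16.6% of RBFOX2 and 11.8% of enzyme-only positions had at least 2. With only positions of at least 2 converted reads, the locus was at 1.35 (0.40 to 2.55). All 22 and 6 unshared positions of the gene alone had at least 2 converted reads, so only the library totals change for it. The same shift as at the locus puts the gene alone below 2-fold, with an interval that includes no difference. Where 1 converted read sufficed in both libraries, as for LYPLA2, PPT1 and ABHD10, the median over 3243 genes was 0.09, and 15.6% and 11.9% passed 2-fold toward the RBFOX2 and enzyme-only library.

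**Figure D2:**
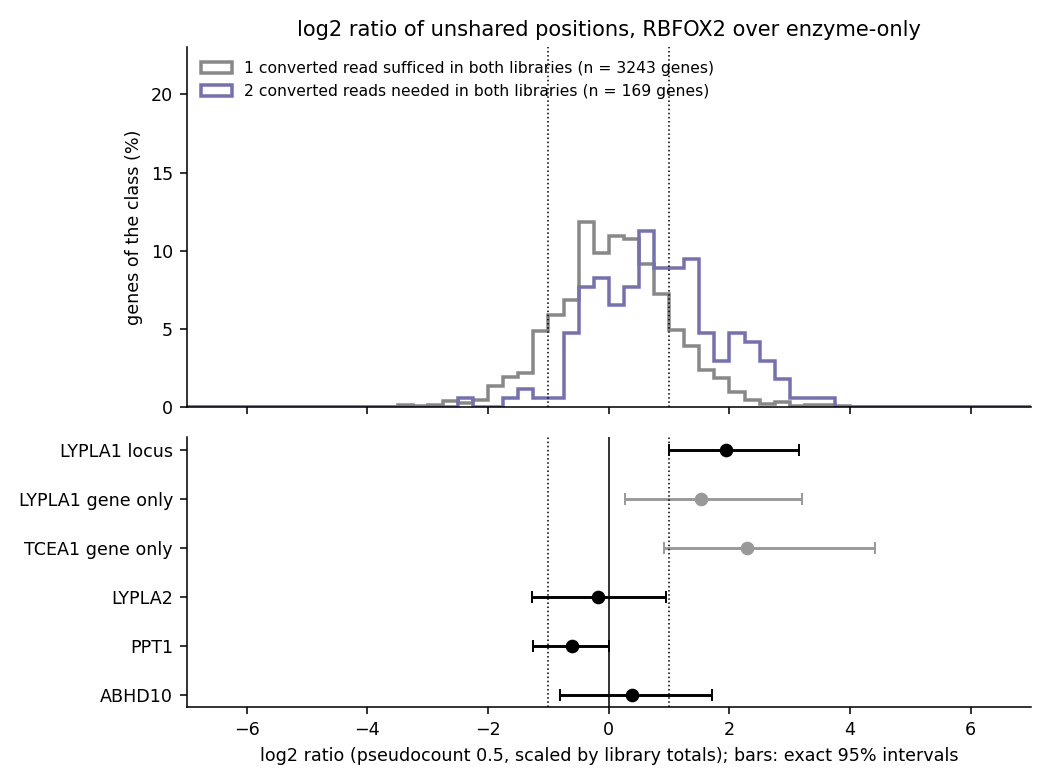
The upper panel gives the percentage of genes (y axis) by log2 ratio of unshared positions (x axis) for genes that needed 1 or 2 converted reads per position in both libraries, and the lower panel gives the members with exact 95% intervals. Dotted lines mark 2-fold. Genes that needed 2 reads lay further right (median 0.78 against 0.09), and the LYPLA1 locus at 1.94 is in their upper part.

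Listed positions of LYPLA1 were gathered in its last exon, which holds the 3′UTR and 262 of the 689 exonic cytosines of the gene. Reads per exon were not given, so editing and depth of the exons cannot be told apart. The exon (chr8:54046368-54048118) had 19 RBFOX2 positions, shared ones included, with 56 converted reads and 6 enzyme-only positions with 12. The strongest was at chr8:54047594, with 8 converted reads in the RBFOX2 library, 0.827% (0.358 to 1.62) of the gene reads of the locus. Positions 54047578, 54047501 and 54048008 had 5 converted reads each, 0.517% (0.168 to 1.20). None of these 4 was listed in the enzyme-only library, where an unlisted position can hold up to 1 converted read, or 0.122% of its gene reads, with an upper limit of 0.675%. The interval of the strongest position overlaps that limit. One position, 54047934, appeared in both, with 2 converted reads each. The enzyme-only library had its own strongest position of the gene elsewhere, in the coding sequence at 54055091, with 5 converted reads or 0.608% (0.198 to 1.41), and the RBFOX2 library did not list it.

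A UGCAUG lay in the LYPLA1 last exon at chr8:54047677-54047682, in all 33 LYPLA1 isoform models. The strongest RBFOX2 positions were 83, 99 and 176 nt to its 3′ side and 326 nt to its 5′ side. No position of either library fell within 50 nt of this motif, where 14 of the 262 cytosines of the exon lie. Within 200 nt there were 9 of 19 RBFOX2 positions, 47.4% (24.4 to 71.1), with 32 of 56 converted reads. The enzyme-only library had 2 of 6 there, 33.3% (4.33 to 77.7), with 4 of 12 converted reads. The window held 55 of the 262 cytosines, 21.0%. It lay wholly in the 703 nt of the exon that short and long models share, where positions of both libraries were denser. Set against that segment alone, 9 of 15 RBFOX2 and 2 of 5 enzyme-only positions stand beside 55 of 112 cytosines, a smaller excess for the RBFOX2 library. Within 100 nt the RBFOX2 share was 2 of 19, 10.5% (1.30 to 33.1), close to the 10.3% of cytosines. These 2 positions held 13 of 56 converted reads, and the enzyme-only library listed none there. Counted by positions, the share thus stood above that of the exon's cytosines in the 200 nt window only. The intervals of the libraries overlap at 200 nt, and a difference between them in position around the motif was not detectable with these counts.

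**Figure D3:**
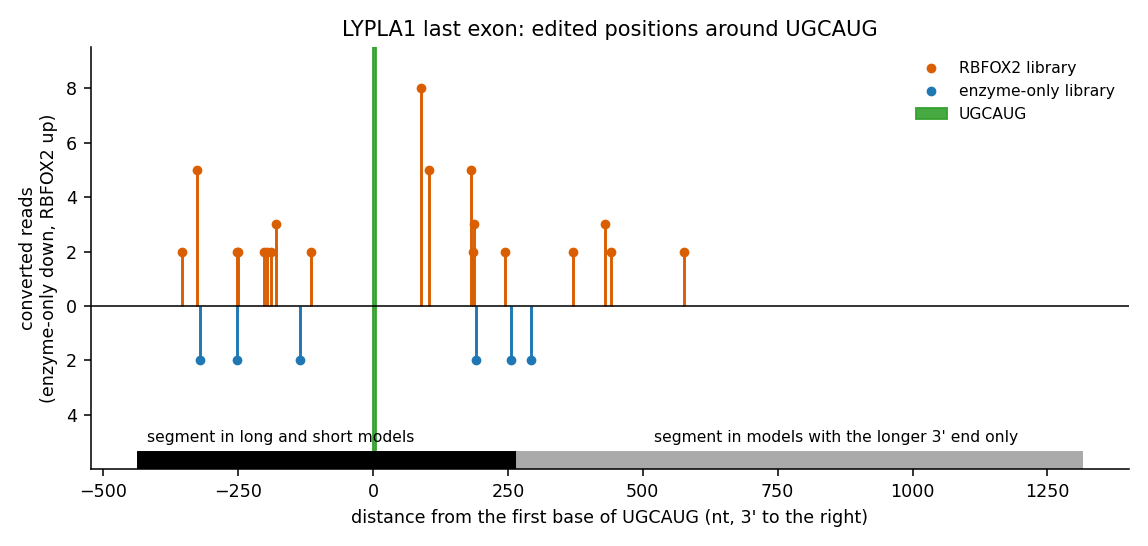
Converted reads (y axis, count, RBFOX2 upward and enzyme-only downward) at each listed position of the LYPLA1 last exon, by distance in nt from the first base of UGCAUG (x axis, green bar), with the exon's segments below. The RBFOX2 position with 8 reads lies 83 nt past the 3′ end of the motif and no listed position lies within 50 nt of it.

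A further exonic UGCAUG of LYPLA1 was in the coding sequence at chr8:54100924-54100929, in 23 models. One RBFOX2 position with 2 converted reads lay 13 nt to its 3′ side, at 54100911, and the enzyme-only library listed none within 200 nt. Over the LYPLA1 gene, 1 of 22 unshared RBFOX2 positions was within 50 nt of a UGCAUG, 4.55% (0.115 to 22.8), beside 2.61% of its exonic cytosines, and 10 of 22 were within 200 nt, 45.5% (24.4 to 67.8), beside 11.3%. For the enzyme-only library these were 0 of 6 and 2 of 6. Of the 10 RBFOX2 positions, 9 lay around the motif of the last exon, so the limit of its segment given above applies to them. Over the whole locus the share within 50 nt was 1 of 48, 2.08% (0.0527 to 11.1), beside 2.04% of cytosines. LYPLA2 and PPT1 had 0 exonic UGCAUG, so none of their positions had one nearby in an exon. The letters were searched on the transcribed strand alone, in exons and introns of the locus. The hexamer contains the shorter GCAUG, which was present 6 times in exons of the LYPLA1 locus, 1 time in LYPLA2, 5 times in PPT1 and 3 times in ABHD10. Within 50 nt of a GCAUG lay 5 of 48 RBFOX2 positions of the LYPLA1 locus, 10.4% (3.47 to 22.7), and 0 of 10 enzyme-only positions, beside 7.01% of cytosines. PPT1 had 12.8% (4.30 to 27.4) of its RBFOX2 and 22% (11.5 to 36.0) of its enzyme-only positions there, beside 14.2%. LYPLA2 had 1 of 16 and 1 of 15, beside 4.11%, the enzyme-only one lying 39 nt from a GCAUG outside the exons. ABHD10 had 4 of 16 and 1 of 10, beside 20.6%. All of these intervals include the share of the gene's cytosines.

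ABHD10 had 1 exonic UGCAUG, at chr3:111990745-111990750, in an exon of 2 of its 9 isoform models. The position printed with it above, 111990734, lay 11 nt to its 5′ side and had 1 converted read in both libraries. Near this motif the RBFOX2 library listed 2 positions within 50 nt and the enzyme-only library 1, each too few to compare.

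Of the 33 LYPLA1 models, 17 ended at the proximal end (54047416), 1 ended 1 nt 3′ of it and 1 ended 5′ of it, and the other 14 extended through the distal segment, as far as 54046368. The 703 nt 5′ of the proximal end held 15 RBFOX2 positions on 112 cytosines, 13.4%, with 47 converted reads, and the 1048 nt present only in the longer models held 4 on 150 cytosines, 2.67%, with 9 converted reads. In the enzyme-only library these were 5 positions, 4.46%, with 10 converted reads, and 1 position, 0.667%, with 2. Both libraries had the higher share in the segment common to short and long models. Reads per end were not given, so editing and depth of the segments cannot be told apart.

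**Figure D4:**
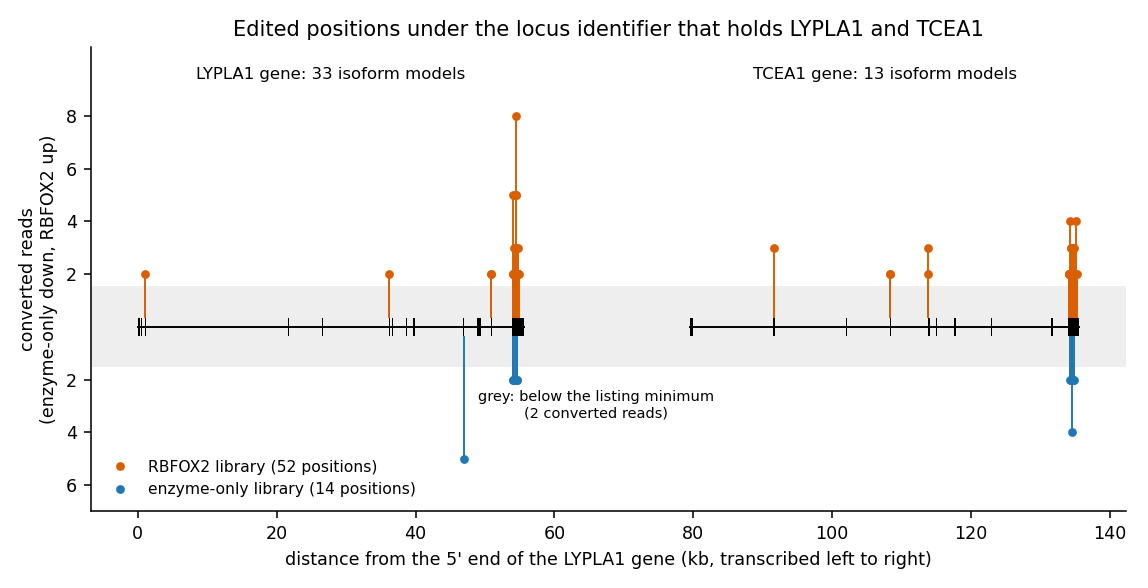
Positions under the identifier that joins LYPLA1 and TCEA1, by distance in kb from the 5′ end of LYPLA1 (x axis) and converted reads (y axis, RBFOX2 up, enzyme-only down), with exons as black boxes. Positions gathered in the last exon of each gene, and all 52 and 14 were in exons of the models.

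The base 5′ of the edited cytosine followed the preference of APOBEC1 in 3 of the 4 genes. At the LYPLA1 locus 45 of 48 unshared RBFOX2 positions, 93.8% (82.8 to 98.7), and 10 of 10 enzyme-only positions had A or U, against 51.1% of exonic cytosines. In the LYPLA1 gene alone this was 22 of 22 and 6 of 6, against 49.6%. PPT1 had 29 of 39, 74.4% (57.9 to 87.0), and 34 of 50, 68.0% (53.3 to 80.5), against 48.2%. ABHD10 had 14 of 16, 87.5% (61.7 to 98.4), and 9 of 10, 90% (55.5 to 99.7), against 51.4%. LYPLA2 was the exception, with 5 of 16, 31.3% (11.0 to 58.7), in the RBFOX2 library and 7 of 15, 46.7% (21.3 to 73.4), in the enzyme-only library, against 32.7% of its cytosines. The LYPLA2 intervals include the share of its cytosines, and its positions were nearly all of 1 converted read.

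In the LYPLA1 gene 18 of 22 unshared RBFOX2 positions were in the 3′UTR, 81.8% (59.7 to 94.8), beside 36.6% of its exonic cytosines, and 5 of 6 in the enzyme-only library. Depth along the gene was not given, so it cannot be told apart from editing in these shares. LYPLA2 had 7 of 16 and 7 of 15 there, beside 51.7%, and PPT1 22 of 39, 56.4%, and 34 of 50, 68.0%, beside 48.6%. ABHD10 had most positions in coding sequence: 15 of 16 in the RBFOX2 library, 93.8% (69.8 to 99.8), and 8 of 10 in the enzyme-only library, 80% (44.4 to 97.5). Both intervals include the 73.8% of its cytosines that are coding. These shares count a base as coding where any transcript does. With the 3′UTR counted first, the 3′UTR shares of the RBFOX2 and enzyme-only library became 92.3% and 94% in PPT1, beside 78.2% of cytosines. They became 37.5% and 90% in ABHD10, beside 56.0%, and 50% and 73.3% in LYPLA2, beside 65.7%.

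Converting a coding cytosine can change the encoded residue, which was computed on the canonical transcript of each gene. The 4 coding RBFOX2 positions of LYPLA1 would all change an amino acid: T33I, S47L, S183F and L184F, each with 2 converted reads. The single coding enzyme-only position would give S110F. Among unshared positions LYPLA2 had 3 synonymous and 5 missense changes in the RBFOX2 library against 2 and 5 in the enzyme-only library. PPT1 had 12 synonymous, 4 missense and 1 stop change, Q177* with 1 converted read, in the RBFOX2 library, and 12 synonymous and 4 missense changes in the enzyme-only library. ABHD10 had 4 synonymous and 10 missense changes in the RBFOX2 library against 4 and 4 in the enzyme-only library. Stops Q146* and Q288* of ABHD10 appeared in both, with 1 converted read each. In TCEA1, under the LYPLA1 locus, R123* had 3 converted reads in the RBFOX2 library and was not listed in the enzyme-only library.

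The strongest shared position of PPT1 was 40073245 in the 3′UTR, with 2 converted reads in the RBFOX2 library against 3 in the enzyme-only library, 0.551% and 0.824% of its gene reads. Positions 40073243 and 40073926 had 1 converted read in the RBFOX2 library against 3 in the enzyme-only library, and 40074070 (F304F, a synonymous change) had 3 and 1. The strongest shared position of LYPLA2, 23795112, had 2 and 3 converted reads, and that of ABHD10, 111991708 (T303I), had 2 and 1. No shared position of PPT1, LYPLA2 or ABHD10 held more than 3 converted reads in either library.

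The share of exonic cytosines with a listed unshared position, called editsC in the study, was computed for each isoform model with at least 50 exonic cytosines. All 33 LYPLA1 models were higher in the RBFOX2 library (median 5.94% against 1.62%), and so were all 13 TCEA1 models, at 6.25% against 0.962%. These models share exons and reads, so they are not replicates. Values of editsC are not scaled by library totals, and the RBFOX2 library had 109357 unshared positions against 91111. The highest LYPLA1 values were in PB.25503.60 (11.7% in the RBFOX2 library against 2.92% in the enzyme-only library), PB.25503.59 (8.12% and 2.54%) and PB.25503.58 (7.62% and 2.24%). The lowest was PB.25503.31, at 4.77% and 1.30%. PB.25503.60 has 2 exons and 137 exonic cytosines, and PB.25503.31 has 10 exons and 461, so the former consists mainly of the last exon where the positions lay. LYPLA2, with 16 and 15 unshared positions and a scaled log2 ratio of -0.17, had model medians of 3.13% and 2.75%. Of its models, 17 of 19 were higher in the RBFOX2 library. Its highest were PB.593.21 (3.39% and 2.87%), PB.593.16 (3.39% and 2.93%) and PB.593.1 (3.38% and 2.75%), and its lowest PB.593.23 (2.57% and 3.22%). PPT1 models had medians of 7.77% and 10.2%, with 10 of 11 lower in the RBFOX2 library and 1 equal. They were led by PB.1079.11 (8.13% and 10.8%), PB.1079.7 (8% and 11.4%) and PB.1079.5 (7.91% and 10.8%), and the lowest was PB.1079.1 (6.88% and 8.82%). ABHD10 models had medians of 6% and 4.24%, and 6 of 9 were higher in the RBFOX2 library. They ranged from PB.11962.15 (6.62% and 5.96%), PB.11962.13 (6.36% and 4.24%) and PB.11962.3 (6.30% and 3.94%) down to PB.11962.10 (3.79% and 4.74%).

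**Figure D5:**
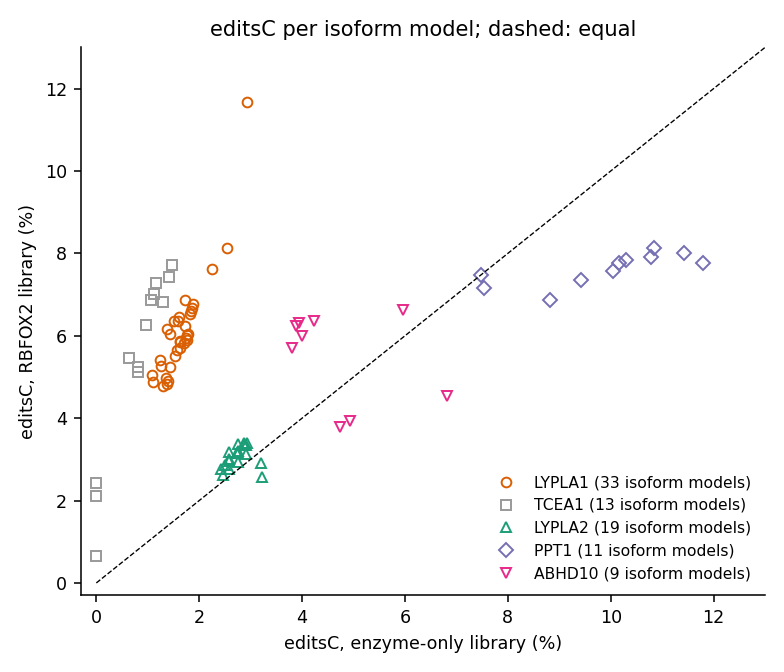
Each point is an isoform model, with editsC in the enzyme-only library (x axis, %) and in the RBFOX2 library (y axis, %); the dashed line marks equality. LYPLA1 and TCEA1 models lie above it, PPT1 models on or below it, and LYPLA2 models near it.

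The other genes of the palmitoylation cycle came from a list of 37 depalmitoylases, palmitoyltransferases and cofactors. Of these, 15 had at least 20 unshared positions. ZDHHC18 had 20 positions in the enzyme-only library and was not listed in the RBFOX2 library, where its read count is not given, so it is left without a fold or a call. Of the remaining 14, LYPLA1 (as the joined locus) and ZDHHC4 were over 2-fold higher in the RBFOX2 library, 14.3% beside 16.8% of all genes. The LYPLA1 gene alone was so too when scaled by all unshared positions, but not when scaled by those of at least 2 converted reads. ZDHHC9 was over 2-fold higher in the enzyme-only library, 7.14%, and 11 were in neither. The set of all genes was not limited to genes listed in both libraries. Without that limit, ZDHHC18 counts toward the enzyme-only library, and 13.3% of the 15 passed toward the RBFOX2 library and 13.3% toward the enzyme-only library. This stands beside 16.8% and 14.6% of all genes. ZDHHC4, a palmitoyltransferase, had 30 and 8 unshared positions, with a log2 ratio of 1.58 (0.48 to 2.98). ZDHHC9, which acts on RAS with its partner GOLGA7, had 9 and 23, with -1.57 (-2.91 to -0.45), and GOLGA7 itself had 49 and 35, with 0.22 (-0.43 to 0.89). ZDHHC6 was at 0.94 (0.13 to 1.84), and its cofactor SELENOK at 0.62 (-0.59 to 2.00). The rest of the transferases were ZDHHC3 at -0.86 (-1.92 to 0.12), ZDHHC12 at 0.03 (-0.95 to 1.05), ZDHHC16 at -0.50 (-1.30 to 0.28) and ZDHHC24 at -0.56 (-1.58 to 0.42). ABHD17A, a further depalmitoylase, was at 0.60 (-0.69 to 2.09). The 14 genes had a median log2 ratio of 0.12 (0.03 with ZDHHC18 kept) beside 0.08 over all genes. The 5 depalmitoylases had one of 0.39 and the 7 palmitoyltransferases one of -0.50.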

How the data were processed

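Edit tables of 2 long-read libraries, RBFOX2 and enzyme-only, were analysed, grouped by the labels' descriptions. Per the labels an Iso-Seq kit was used; the study's methods name another kit, IsoQuant isoforms and further replicates, and whether the deposited tables stem from that run is not known. In those methods the authors aligned reads to hg38 with pbmm2. They deposited, per position, a count of converted reads, a count of gene reads and an edit fraction, which is converted reads over the reads of the whole gene. The deposited confidence fraction was not used, and removal of dbSNP variants was not repeated. Loci were assigned to GENCODE 44 genes by same-strand exonic overlap (bedtools 2.31.1). Positions in both libraries were left out of ratios and shares. The log2 ratio used a pseudocount of 0.5 and library totals. No p-value was computed, for want of replicates (scipy 1.17.1, pandas 2.3.3, pysam 0.24.0, samtools 1.23.1); the ratio calculation was tested on simulated counts. Named genes, isoforms and positions followed fixed cutoffs of at least 20 unshared positions, the 3 highest and the 1 lowest editsC, and the 5 positions with most converted reads. Members and lists were chosen with earlier results of these data known.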

Additional observations from a re-analysis of the deposited data

How the results depend on the processing

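Counts were compared within 1.5 times, and ratios and shares within the exact 95% interval of the reported value. Medians of editsC have no such interval, and the limit used for them is not given here. By these measures 125 of 153 recomputed values stayed and 28 moved. Some of those that stayed were fixed in advance. Counts under a common read minimum repeat the main ones, because each member had the same minimum in both libraries. The LYPLA1 locus already needed 2 converted reads, so its counts, shares and editsC with that minimum repeat as well. The intervals are wide: the ABHD10 log2 ratio scaled by gene reads was 0.73 and that of PPT1 -0.35, both inside theirs. The log2 ratio of the LYPLA1 locus stayed above 1 under each alternative tried. It was lowest, at 1.35 (0.40 to 2.55), with positions of at least 2 converted reads only. Restricting positions to the annotated LYPLA1 gene, an alternative chosen after seeing the data, left 23 RBFOX2 and 7 enzyme-only positions, and moved the share of RBFOX2 positions with A or U directly 5′ to 100%. Widening the window around UGCAUG to 200 nt moved the share of RBFOX2 positions of the locus to 25%, beside 8.96% of cytosines. Of these 12 positions, 2 were TCEA1 positions near a UGCAUG outside the exons. Another 9 lay around the motif of the LYPLA1 last exon, in its more densely listed segment. Other changes were in LYPLA2, PPT1 and ABHD10, mostly with a minimum of 2 converted reads, which left 1 and 1, 7 and 7, and 1 and 0 positions in the RBFOX2 and enzyme-only library; the low depth behind these genes limits any comparison. Gene reads of the LYPLA1 locus include those of TCEA1. No paired analysis was possible because there is 1 library per group and the labels' replicate numbers are not shared.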
